A study of Mus musculus with 2 samples.

Results

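The genes described here encode enzymes and a transporter that make itaconate and nitric oxide, split arginine and handle polyamines. The 8 genes, Acod1, Nos2, Arg1, Arg2, Ass1, Slc7a2, Odc1 and Sat1, were taken by name out of 15605 genes listed in the deposited tables. All 8 were listed in both libraries, and all 8 reached the minimum of 50 estimated counts in the higher library that 9498 genes reached. RNA came from peritoneal macrophages of C57BL/6 mice, aged 6 to 8 weeks, that were wild type or lgmn-/-. Before RNA was taken, both groups of cells had spent 4 days in culture together with the mouse breast cancer line EO771. Lgmn encodes legumain, a lysosomal protease. There was 1 library per genotype, so the differences below are without replicates and carry no p-values. How many mice gave the cells of a library, which Lgmn exons were deleted and whether a membrane separated the cells are not given in the sources used here.

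Itaconate is made in mitochondria by Acod1, which decarboxylates cis-aconitate drawn from the tricarboxylic acid cycle, and activated macrophages are known for making it. Arginine is contested between enzymes. Nos2, the inducible nitric oxide synthase, turns it into nitric oxide and citrulline, while the arginases Arg1 and Arg2 split it into urea and ornithine, which Odc1 commits to polyamines. High Nos2 and high Arg1 are classically used to mark opposed states of macrophage activation.

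The libraries had 11885784 (wild type) and 11740202 (knockout) estimated counts. Lgmn itself had 23550 and 426 counts, 64.3-fold lower in the knockout library (interval 58.6 to 71.1), an order that matches the labels. Macrophage genes were abundant in both libraries: the 12 markers on the list, Lyz2 and Cd68 among them, had a summed FPKM of 20985 and 20042. Most of each sum came from Lyz2 (13191.7 and 12481.1) and Cd68 (5172.5 and 3755.8). FPKM, a level corrected for transcript length and library depth, is used below to compare genes with each other. Ratios between libraries are those of estimated counts scaled by TMM, a trimmed mean of the gene ratios, and each interval is a 95% exact Clopper-Pearson interval that covers counting error only. The ratio followed transcript length over all genes, with Spearman's rho at 0.609 for the 9498 genes (genes are not independent samples). Each log2 ratio is therefore given also after a smooth trend on length was subtracted.

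The promoter windows of 4 of the 8 genes, Acod1, Ass1, Odc1 and Sat1, were in the RefSeq table for GRCm38.p6. Entries for Nos2, Arg1, Arg2 and Slc7a2 were not matched. Each window runs from 250 bases before to 50 bases after a transcript start, and 3 are shown, because they place the gene with the highest ratio of the 8 beside a gene that was moderately higher and one that was lower. Capitals mark motif matches, and bases are written along the strand of the gene. Acod1 lies at chr14:103046762-103047061 (plus strand), Ass1 at chr2:31470020-31470319 (plus strand) and Odc1 at chr12:17544623-17544922 (plus strand).
Acod1: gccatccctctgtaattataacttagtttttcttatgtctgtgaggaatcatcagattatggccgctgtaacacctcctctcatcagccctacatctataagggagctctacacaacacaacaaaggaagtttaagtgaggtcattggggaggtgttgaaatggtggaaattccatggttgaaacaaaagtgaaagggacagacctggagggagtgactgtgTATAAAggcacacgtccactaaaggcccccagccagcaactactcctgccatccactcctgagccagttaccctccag
Ass1: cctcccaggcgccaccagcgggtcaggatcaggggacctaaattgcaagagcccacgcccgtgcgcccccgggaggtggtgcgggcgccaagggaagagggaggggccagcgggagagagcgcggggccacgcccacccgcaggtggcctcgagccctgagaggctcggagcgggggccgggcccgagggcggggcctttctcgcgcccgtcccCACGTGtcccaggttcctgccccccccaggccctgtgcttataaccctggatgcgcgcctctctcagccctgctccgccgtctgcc
Odc1: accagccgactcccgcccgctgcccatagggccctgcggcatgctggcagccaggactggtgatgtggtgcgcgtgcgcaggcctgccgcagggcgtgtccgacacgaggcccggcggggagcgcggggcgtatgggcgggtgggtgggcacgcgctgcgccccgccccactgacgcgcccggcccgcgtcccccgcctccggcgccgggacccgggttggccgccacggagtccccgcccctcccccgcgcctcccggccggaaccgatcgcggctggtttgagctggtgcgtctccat

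The Acod1 window had 47.0% G and C and 2 CG dinucleotides, against medians of 52.7% and 7 over 32851 windows. The windows of Ass1, Odc1 and Sat1 had 74.0%, 78.0% and 60.3% G and C, with 27, 42 and 21 CG dinucleotides. The capitals in Acod1 are a TATA box (TATAAA) whose first base lies 28 bases before the start, a motif that 13.6% of all windows hold. The capitals in Ass1 are an E-box (CACGTG) 36 bases before the start, held by 7.15% of windows. The other motifs searched, on both strands, were the gamma-activated site (TTCNNNGAA, in 8.30% of windows), the interferon response element (GAAA, any pair of bases, GAAA, in 3.44%), an NF-kappaB core (GGGANTTTC, in 1.11%), the cyclic AMP element (TGACGTCA, in 1.79%) and the amino acid response element (TGATGNAAN, in 3.95%). None of these 5 occurred in the 4 windows, and neither Odc1 nor Sat1 held any of the 7. A match is a run of letters and was not tested as a site.

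Acod1 and Nos2, whose products make itaconate and nitric oxide, and Slc7a2, an arginine importer, were the 3 of 8 genes at least 2-fold higher in the knockout library. None of the 8 was at least 2-fold lower. Of all genes with 50 counts, 6.05% passed 2-fold upward and 1.74% downward, 575 and 165 genes. Scaling by library totals instead gave 1036 and 107 genes, and placed 4 of the 8, with Arg2 added, past 2-fold upward. Arg1, Arg2 and Ass1 were higher by less than 2-fold, and Odc1 and Sat1 were lower by less than 2-fold. The median log2 ratio of the 8 was 0.68, against -0.00061 over all 9498 genes. The 8 genes were chosen with earlier results of these data known, so this is not an independent comparison.

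**Figure D1:**
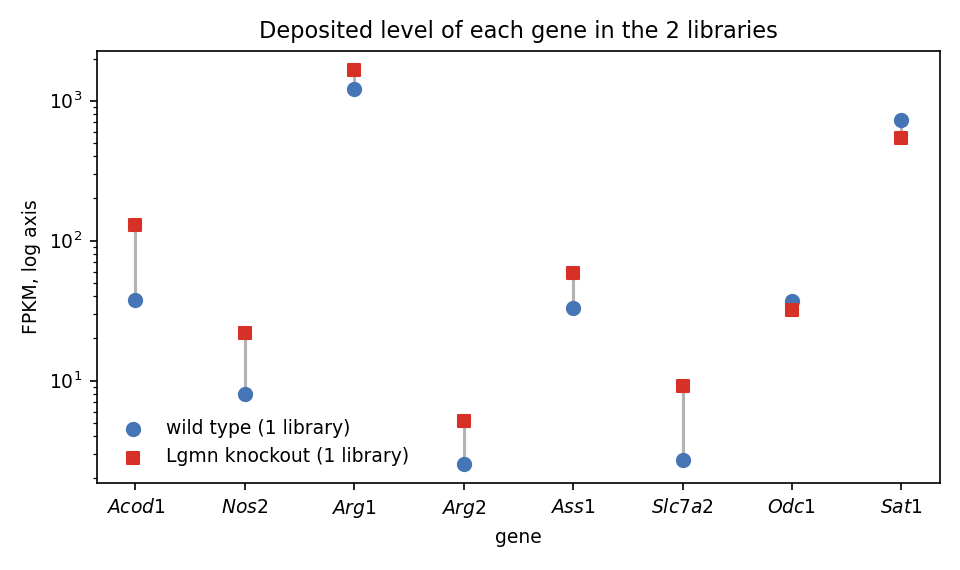
FPKM (vertical, log axis) of the 8 genes in the wild type library (blue circles) and the Lgmn knockout library (red squares), 1 library each, with no error bars. Arg1 and Sat1 are the highest in both libraries, and the widest gaps are those of Acod1 and Slc7a2.

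By FPKM the 8 genes ran from rank 127 (Arg1) to rank 7197 (Arg2) among the 14681 genes listed in the wild type library. In the wild type library the order by FPKM was Arg1 (1202), Sat1 (725), Acod1 (37.6), Odc1 (37.0), Ass1 (33.2), Nos2 (8.00), Slc7a2 (2.69) and Arg2 (2.55). In the knockout library it was Arg1 (1644), Sat1 (537), Acod1 (129), Ass1 (58.9), Odc1 (32.0), Nos2 (22.1), Slc7a2 (9.11) and Arg2 (5.17). Only Ass1 and Odc1 changed places. With 1 library per genotype there is no spread between samples, so the close neighbours Acod1, Odc1 and Ass1 in the wild type library, and Slc7a2 and Arg2 there, cannot be ordered beyond replicate error.

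Acod1 (Entrez gene 16365, chromosome 14, 103047012 to 103056573) had 1172 estimated counts in wild type and 3972 in knockout cells. It was 2.91-fold higher in the knockout library (interval 2.72 to 3.11), a log2 ratio of 1.54, and moved from rank 1713 to rank 661 by FPKM among all listed genes. With the length trend subtracted the log2 ratio was 1.58. It was the one gene of the 8 that was at least 2-fold higher under each of 9 alternative settings of scaling, unit, length, pseudocount and minimum, at log2 ratios from 1.54 to 1.78.

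Nos2 (Entrez gene 18126, chromosome 11, 78920787 to 78960226) had 404 and 1098 counts. It was 2.33-fold higher in the knockout library (interval 2.08 to 2.62), a log2 ratio of 1.22. Its transcript is 4164 bases long, the trend at that length was 0.26, and subtracting it left a log2 ratio of 0.96, which is 1.94-fold and under the threshold. Per length, and without the trend subtracted, Acod1 exceeded Nos2 by 4.70 times in the wild type library and by 5.85 times in the knockout library.

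Slc7a2 (Entrez gene 11988, chromosome 8, 40862341 to 40922070) encodes a cationic amino acid transporter that brings arginine into macrophages. It had 253 and 844 counts, 2.86-fold higher in the knockout library (interval 2.48 to 3.31) and a log2 ratio of 1.51. At 7720 bases it is the longest transcript of the 8, and the trend at that length was 0.79. With the trend subtracted its log2 ratio was 0.72, or 1.65-fold, so about as much of the ratio followed the trend as lay above it. The tables give 1 value per gene and do not separate its isoforms. The related transporter Slc7a1, named after its values were seen, had 31 and 33 counts and an FPKM of 0.35 and 0.39, below Slc7a2 in both libraries.

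Ass1 (Entrez gene 11898, chromosome 2, 31470270 to 31520670), argininosuccinate synthase, works with Asl to rebuild arginine from the citrulline that nitric oxide synthase releases. It had 648 and 1133 counts, 1.5-fold higher in the knockout library (interval 1.36 to 1.65). Its log2 ratio was 0.58, and 0.80 with the length trend subtracted, or 1.74-fold. Asl, the next enzyme, had 558 and 514 counts and a log2 ratio of -0.34, or -0.12 after the subtraction. Per length, Ass1 was 1.13 times Asl in the wild type library and 2.15 times Asl in the knockout library.

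**Figure D2:**
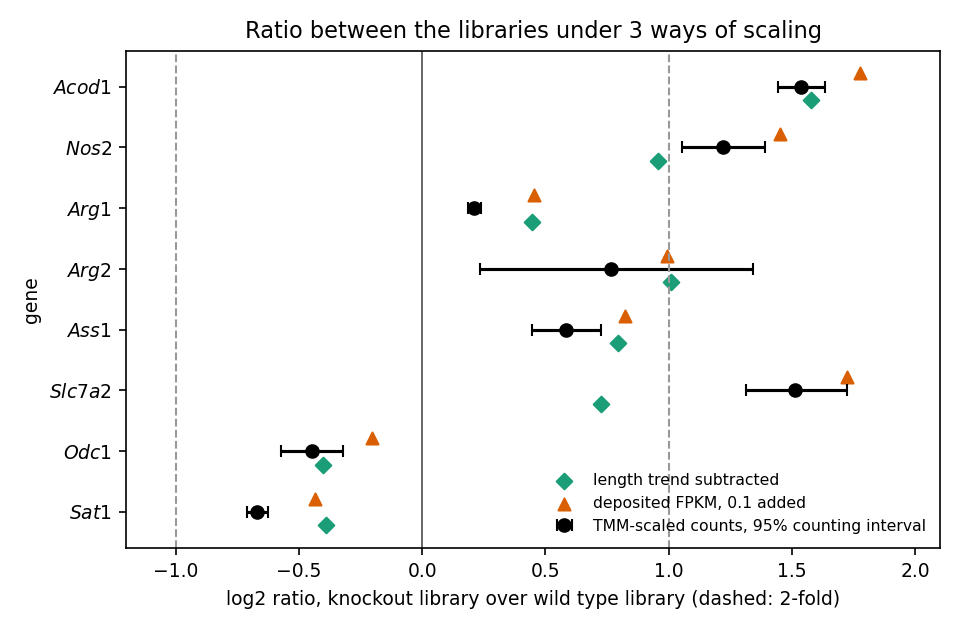
Log2 ratio of the knockout over the wild type library (horizontal) for each gene, from TMM-scaled counts (black circles, bars are 95% counting intervals), with the length trend subtracted (green diamonds) and from deposited FPKM with 0.1 added (orange triangles). Dashed lines mark 2-fold. Acod1 stays beyond 2-fold in all 3, while Nos2 and Slc7a2 fall inside it with the trend subtracted and Arg2 reaches 2-fold there.

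The arginases stood far apart in level. Arg1 (Entrez gene 11846, chromosome 10, 24915207 to 24927470), the cytosolic arginase, had 21347 and 28807 counts and ranked 127 and 75 by FPKM among all listed genes. It was 1.16-fold higher in the knockout library (interval 1.14 to 1.18), a log2 ratio of 0.21, and 0.44 with the length trend subtracted. Arg2 (Entrez gene 11847, chromosome 12, 79130788 to 79156301), the mitochondrial arginase, had 43 and 86 counts. It was 1.70-fold higher (interval 1.18 to 2.54), with a log2 ratio of 0.77.

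With the length trend subtracted Arg2 had a log2 ratio of 1.01, or 2.01-fold, just past the threshold, and it had the widest counting interval of the 8. Arg1 exceeded Arg2 per length by 471 times in the wild type library and by 318 times in the knockout library. Arg1 exceeded Nos2 per length by 150 times in the wild type library and by 74.5 times in the knockout library. The length trend was -0.23 at the length of Arg1 and 0.26 at that of Nos2, so part of this fall followed the trend. With the trend subtracted their log2 ratios were 0.44 and 0.96. High Arg1 and a measurable Nos2 were thus present in the same library in both genotypes, and these bulk values do not show whether they came from the same cells.

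Odc1 and Sat1, which act on polyamines, were the pair with lower values in the knockout library. Odc1 (Entrez gene 18263, chromosome 12, 17544808 to 17551502), ornithine decarboxylase, makes putrescine from ornithine. It had 1135 and 970 counts, 1.36-fold lower in the knockout library (interval 1.25 to 1.49), with a log2 ratio of -0.45, and -0.40 with the trend subtracted. Its deposited counts, 1134.75 and 970.06, are not whole, which means that some reads were divided between it and similar sequences by estimate. The same holds for Slc7a2 (252.98 and 844.23) and for Ass1 in the knockout library (1132.89), whose counts are given rounded above. Sat1 (Entrez gene 20229, chromosome X, 155213126 to 155216449), which acetylates spermidine and spermine for breakdown or export, had 10076 and 7388 counts. It was 1.59-fold lower (interval 1.54 to 1.64), with a log2 ratio of -0.67, and -0.39 with the trend subtracted.

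Per length, Arg1 exceeded Odc1 by 32.5 times in the wild type library and by 51.3 times in the knockout library. Sat1 exceeded Odc1 by 19.6 and 16.8 times. Odc1 and Arg2 share chromosome 12 with Lgmn, and their starts lie 84.8 and 23.3 Mb from that of Lgmn.

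**Figure D3:**
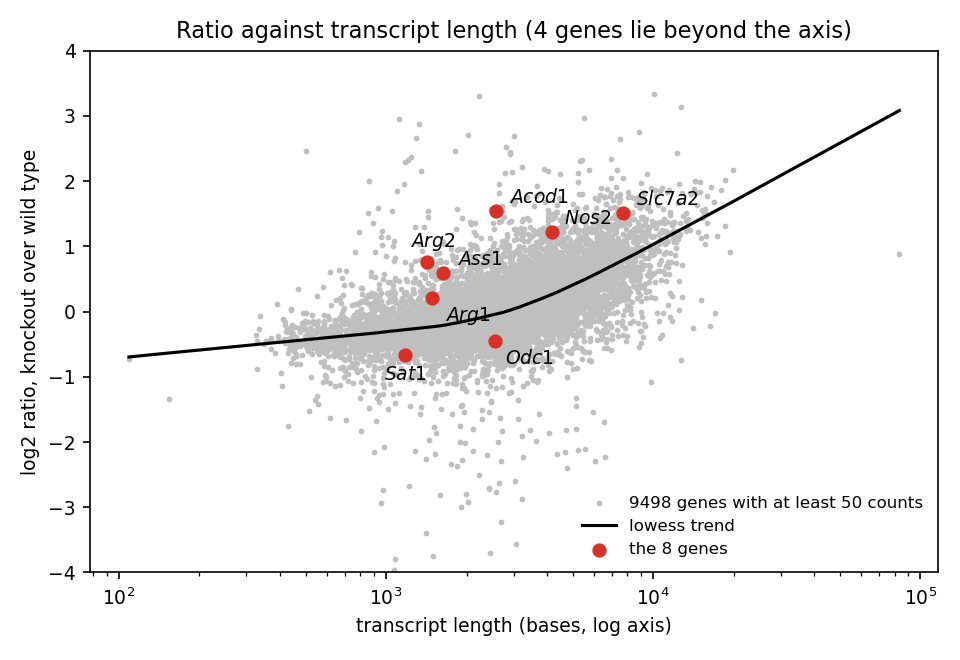
Log2 ratio of the knockout over the wild type library (vertical) against transcript length in bases (horizontal, log axis) for 9498 genes (grey), with the lowess trend (line) and the 8 genes (red). 4 genes lie beyond the vertical axis. Slc7a2 lies 0.72 above the trend and Acod1 1.58 above it, while Odc1 and Sat1 lie below it.

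Subtracting the length trend reordered the genes without turning any direction. The short transcripts Arg1, Arg2 and Ass1 moved up and the long Nos2 and Slc7a2 moved down. The 6 genes with a log2 ratio above 0 then ranged from 0.44 for Arg1 to 1.58 for Acod1, and 2 of the 8, Acod1 and Arg2, were at least 2-fold higher, with none at least 2-fold lower. After the subtraction, 2.14% of all genes passed 2-fold upward and 1.90% downward. The median of the 8, a set chosen with earlier results of these data known, was 0.76, against -0.01 over all genes.

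Genes around the 8 in the same pathways mostly lay between the 2-fold bounds. Beside the counts of each list below stand the shares over all genes, 6.05% at least 2-fold higher and 1.74% lower. Scaling by totals raised the median of all genes by 0.24, so the medians below are relative to TMM scaling, and those of the arginine, proline and polyamine lists were above 0 with totals. Those of the tricarboxylic acid cycle and nitric oxide lists were -0.05 and -0.10 with totals, and -0.15 and -0.20 with the length trend subtracted. Of 32 genes for the tricarboxylic acid cycle and itaconate handling, 31 passed the minimum and none was at least 2-fold higher or lower, with a median log2 ratio of -0.29. Mmut, a mitochondrial mutase, had 0.67, Abcg2, an export pump, -0.63, and Mdh2, malate dehydrogenase, -0.55. With the length trend subtracted these were 0.50, -0.58 and -0.29. Sdhb, a subunit of the succinate dehydrogenase that itaconate inhibits, had an FPKM of 116 and 132, the highest single value of this list, though Sdhd, another subunit, was higher in the wild type library at 129 and had 122 in the knockout library. Sdhb had a log2 ratio of -0.05 that was above 0 with the length trend subtracted. The absence of such calls among these 31 genes is near the shares over all genes and does not set the list apart.

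Of 25 genes for nitric oxide, its cofactor tetrahydrobiopterin and the breakdown of methylated arginine, 16 passed the minimum, 1 was at least 2-fold lower and none higher, with a median of -0.33. The lower gene was Ddah2, which belongs to the family that clears the synthase inhibitor dimethylarginine, with 82 and 34 counts and a log2 ratio of -1.46. Pcbd2, a pterin dehydratase, had -0.57, and -0.17 with the trend subtracted. Calm2, one of the genes for calmodulin, which nitric oxide synthases bind, had -0.51, or -0.24 with the trend subtracted. Its FPKM was 493 and 409. Gch1, which starts tetrahydrobiopterin synthesis, had 1271 and 1133 counts and a log2 ratio of -0.39. The other synthases were near the floor, Nos3 with 10 and 4 counts. Gch1 and Nos3 were named after their values were seen.

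Of 27 genes for arginine supply, transport and the urea cycle, 17 passed the minimum, 2 passed 2-fold upward and 1 downward, and the median was -0.12. Slc7a8, a neutral amino acid transporter, had 410 and 1156 counts and a log2 ratio of 1.27, and 1.03 with the trend subtracted. Castor2 (21 and 55 counts) and Castor1 (119 and 66), the latter an arginine sensor of the mTORC1 pathway, had log2 ratios of 1.13 and -1.06, and 0.76 and -0.84 with the trend subtracted. Slc3a2, the heavy chain of several amino acid transporters, had the highest FPKM, 172 and 148. The mitochondrial urea cycle genes Otc and Cps1 were listed in neither library.

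Of 13 genes that lead from ornithine to proline and glutamate, 10 passed the minimum and none was at least 2-fold different, with a median of -0.16. Aldh18a1, which makes the proline precursor from glutamate, had 56 and 35 counts and a log2 ratio of -0.88, and -1.03 with the trend subtracted. P4ha1, a prolyl hydroxylase subunit, had the highest FPKM of the list, 53.5 and 56.3. Of 27 polyamine genes, 20 passed and none was at least 2-fold different, with a median of -0.18. The largest ratios were those of Atp13a2, a lysosomal polyamine exporter, at 0.97, and its relative Atp13a3, at 0.74, which were 0.69 and 0.0032 with the trend subtracted. Sms, spermine synthase, had -0.58, and Eif5a, the protein that carries the spermidine-derived residue hypusine, had the highest FPKM, 294 and 324.

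**Figure D4:**
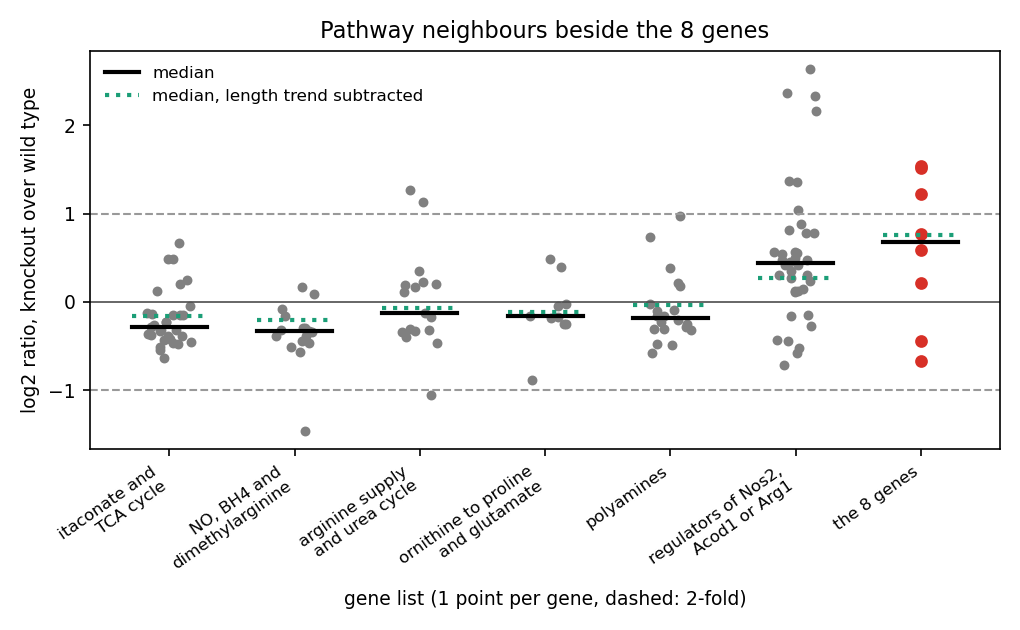
Log2 ratio of the knockout over the wild type library (vertical) for each gene with at least 50 counts (1 point per gene) in 6 pathway lists and for the 8 genes (red). Black bars are medians and green dotted bars medians with the length trend subtracted, and the regulators are the list with the highest median, 0.44.

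Of 41 genes known to act upstream of Nos2, Acod1 or Arg1, 38 passed the minimum, 7 were at least 2-fold higher and none lower. Their median was 0.44, and 0.27 with the trend subtracted, when 8 were at least 2-fold higher. Ifng, a cytokine known to induce Nos2, had 10 and 63 counts and a log2 ratio of 2.33. Socs1, a feedback inhibitor of that pathway, had 37 and 227 counts and 2.37. Crebbp, a coactivator with a transcript of 7507 bases, had 9 and 71 counts, with a log2 ratio of 2.64 that was 1.88 with the trend subtracted.

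The other 4 past 2-fold, named after their values were seen, were the cytokines Il1b (2.16) and Tnf (1.04), the receptor Tlr2 (1.37) and the transcription factor Irf1 (1.36, from 1799 to 5397 counts). Stat6 and Il4ra, which carry the interleukin signal that induces Arg1, had log2 ratios of 0.11 and 0.42 and were also named afterwards. With the length trend subtracted these turned to -0.0896 and -0.0044. Irf7, an interferon regulatory factor, had the highest FPKM of the list, 540 and 575, with a log2 ratio of -0.15 whose sign turned with scaling by totals. This list was drawn up with earlier results on these libraries known and is not independent evidence of a direction.

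Marker genes of several other cells also differed. Of 13 T and natural killer cell markers, 12 were listed and 7 passed the minimum, 3 were at least 2-fold higher and none lower, and their summed FPKM was 158 and 299. Trac was listed in neither library. Cd3e had 2 and 7 counts and Ncr1 19 and 44. Of 13 fibroblast and mural cell markers, 9 passed, 8 were at least 2-fold lower and none higher, and the summed FPKM was 98.5 and 28.5. Of 11 neutrophil markers, 5 passed and none was at least 2-fold different, with sums of 207 and 201, while Ly6g had 6 and 12 counts. Most of these sums came from Mmp8 (113 and 77.2) and S100a8 (83.0 and 106), which went opposite ways. Carcinoma markers summed to 0.99 and 0.89, with Epcam at 1 and 2 counts.

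Of the other lists, 1 of 12 macrophage markers was at least 2-fold higher, and of 6 monocyte markers 1 was higher and 1 lower. The log2 ratio was above 0 for 8 of the 12 macrophage markers, with a median of 0.37, and below 0 for Lyz2 (-0.32) and Cd68 (-0.70). Summed FPKM was 58.4 and 47.0 for large peritoneal macrophage markers, 9.27 and 14.1 for eosinophils and mast cells, 3.96 and 6.46 for dendritic cells, 1.40 and 2.51 for B cells and 2.59 and 5.78 for endothelial cells. Of the large peritoneal markers, Serpinb2 (849 and 425 counts) was at least 2-fold lower and Cxcl13 (19 and 89) higher. Gata6 (23 and 28) and Timd4 (20 and 16) did not pass the minimum. Siglecf (42 and 127), Clec9a (13 and 74) and Pecam1 (45 and 128), from the eosinophil, dendritic and endothelial lists, were also at least 2-fold higher. Mesothelial markers summed to 5.55 and 0.45, of which Krt19, also expressed by other epithelia, gave 4.65 and 0.37, at 67 and 4 counts. Krt19 was the only 1 of the 7 to pass the minimum. The 5 not listed in the knockout library had from 1 to 7 counts in the wild type library, near the floor. The part of these other cells in the values of the 8 genes was not tested. In bulk RNA a change in the number of cells that express a gene and a change in RNA per cell cannot be told apart.

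The genes nearest to Acod1 in log2 ratio, among 921 with a mean scaled count within 2-fold of its own, were Gvin1 (1.58), Gbp7 (1.60) and Gbp5 (1.64). With the length trend subtracted they were 0.66, 1.09 and 1.60, so Gbp5 alone of the 3 stayed close to the 1.58 of Acod1. The genes nearest to Sat1, the lowest of the 8, among 297 were Rps20 (-0.66), Rpl31-ps12 (-0.66) and Card19 (-0.69), against -0.67 for Sat1. With the length trend subtracted they were -0.79, -0.23 and -0.34, against -0.39 for Sat1, so Card19 was then the nearest of the 3. This likeness rests on 2 libraries only.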

How the data were processed

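Per the labels' protocols, sequencing used a BGISEQ-500. For each Entrez gene the authors deposited an estimated count, an FPKM and a transcript length, per the file headers. The submitters' processing notes name RSEM, Bowtie2, HISAT2 and mm10 but neither roles nor versions. Whether strand was used is not stated in those sources. A gene missing from a file was treated as having no counts there, and the lowest FPKM listed was 0.01. Symbols, matched for 15561 of 15605 identifiers, and coordinates came from RefSeq for GRCm38.p6, the assembly called mm10.

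Samples were grouped by the genotype label. Estimated counts were rounded, then scaled in R 4.3.3 by edgeR 4.0.16 with TMM (factors 0.921, wild type, and 1.09, knockout). Log2 ratios were taken after adding 1 scaled count, and genes with 50 or more estimated counts in the higher library were compared with a 2-fold threshold. The length trend is a lowess fit of log2 ratio on log2 length with a span of 0.3. Intervals do not cover variation between mice, and reads were not tied to single molecules by identifiers, as far as the labels say. Ratios were tested on simulated counts that had counting error only and no length trend, and trend removal on a separate simulated straight trend. Neither simulation held variation between mice. DESeq2 1.42.0 gave the alternative size factors.

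The 8 genes, 6 pathway lists and 12 marker lists were chosen with earlier results of these data known. Named are the 8 genes, Lgmn, from each pathway list the 3 genes with the largest absolute ratios and the 1 with the highest FPKM, and the 3 nearest to the highest and lowest of the 8, except for a few not reported here. Intervals used scipy 1.17.1, the trend statsmodels 0.14.6 and figures matplotlib 3.10.9, with pandas 2.3.3 and numpy 2.4.6 under Python 3.11.15.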

Additional observations from a re-analysis of the deposited data

How the results depend on the processing

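No paired analysis was possible because there was 1 library per genotype, and for the same reason no library could be left out. Of the 8 genes, 3 were at least 2-fold higher in every setting of the pseudocount, the minimum, DESeq2 size factors and FPKM, 4 with library totals or a 1.5-fold threshold, and 2 with the length trend subtracted. None was at least 2-fold lower, and 1, Sat1, passed 1.5-fold. Directions of the 8 held under all alternatives. Arg2 has 8 alternatives, since it fails a minimum of 200 counts. Over all genes, against 575 higher and 165 lower, totals gave 1036 and 107, FPKM 936 and 102, a minimum of 10 counts 921 and 436, of 200 counts 273 and 67, no minimum 1458 and 1531, a 1.5-fold threshold 1562 and 607, and the length trend left 203 higher. The higher share of these calls thus depends on scaling. Totals and FPKM shift the median of all genes to 0.24 and 0.23.

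Of the pathway lists, the number at least 2-fold different went from 3 to 1 (minimum of 200) and 6 (no minimum) for arginine supply, from 1 to 3, 0 and 5 (minimums of 10, 200 and none) for nitric oxide, from 0 to 1 for proline (length trend) and for polyamines (totals, and FPKM), and from 7 to 11 for regulators (totals). Signs turned with totals, FPKM and the length trend for Eif5a (0.14, 0.14, 0.16), Irf7 (0.0847, 0.0893, 0.0208) and Sdhb (0.19, 0.19, 0.24), and with totals and FPKM for P4ha1 (0.0732, 0.0753). Those of Stat6 and Il4ra, named after their values were seen, turned with the length trend (-0.0896 and -0.0044). With totals and FPKM the list medians turned to 0.11 and 0.12 for arginine supply, 0.08 and 0.08 for proline and 0.05 and 0.06 for polyamines. The cause was not tested.

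Precision is least for Arg2, at 43 and 86 counts, and no setting addresses variation between mice.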
